A study of Mus musculus with 3 samples.

Results

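The AP-1, BATF, BACH2 and MAF factors are transcription factors of the basic leucine zipper (bZIP) class. The 10 genes Batf, Batf3, Jun, Junb, Jund, Fos, Fosb, Fosl2, Bach2 and Maf were taken by name from the 55536 annotated mouse genes of the gene-level tables, and each name matched 1 gene. They were measured by polyA-selected RNA sequencing in regulatory T cells labelled as inflammation-experienced, primary cells of a male adult mouse of 16 weeks. Its strain is named Foxp3GFP-DTRCD4CreERT2R26tdTomato, which holds a GFP and diphtheria toxin receptor linked to Foxp3, a tamoxifen-activated Cre under Cd4 and a tdTomato reporter. All cells share these alleles, and the labels used here give no tamoxifen, toxin or inflammatory treatment and no sorting gate. The 3 libraries are technical replicates numbered 1 to 3, all from 1 donor and 1 biological replicate, and form 1 group, so each SD and p-value below measures the spread between these libraries and not between animals. The labels used here do not say whether the libraries came from separate preparations of cells or RNA, so a difference between them can be technical. No control cells were measured in this group, so levels are described within it.

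These factors bind DNA as dimers. Each carries a basic region that contacts the DNA and a leucine zipper that joins it to a partner. JUN proteins pair with each other or with FOS proteins to form AP-1, which is activated downstream of antigen receptors and MAP kinases. BATF proteins also pair with JUN proteins but lack the activation domain of FOS, and with IRF4 they bind composite DNA elements in T cells. BACH2 is a repressor that pairs with small MAF proteins and is known to hold T cells, regulatory T cells included, in a resting state. MAF, also called c-MAF, is a large MAF protein known for driving genes such as Il10, Il4 and Il21.

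The basic regions show how close the members are to each other. The 27 coding bases that start at the invariant asparagine codon and end at an arginine codon of the basic region are printed from the GENCODE M21 transcripts (mm10). The capitals mark those first and last codons. The sequences are given in the 5′ to 3′ direction of the gene's own strand.
Jun: AACcgcattgccgcctccaagtgcCGG
Junb: AACaggctggcggccaccaagtgcCGG
Jund: AACcgcatcgccgcctccaaatgcCGC
Fos: AATaagatggctgcagccaagtgcCGG
Fosb: AACaagctggctgcagctaagtgcAGG
Fosl2: AACaagctagctgcagccaagtgtCGG
Batf: AATcgcatcgctgcccagaagagcCGA
Batf3: AACcgggttgcagctcagaggagcCGG
Bach2: AACcgcattgcagcccagcgctgtCGA
Maf: AACcgcggctatgcccagtcctgcCGC
Over these bases Jund differed from Jun at 3 positions and Junb at 6. Fosb and Fosl2 each differed from Fos at 4 positions. Batf differed from Jun at 8 positions and from Fos at 10, and Batf3 differed from Batf at 8. Bach2 differed from Jun at 9 positions and from Batf at 8. Maf differed from Jun at 13 positions, from Fos at 17 and from Batf at 10. The stretch of Batf lies at chr12:85689310-85689336 on the plus strand, that of Junb at chr8:84977581-84977607 on the minus strand, and that of Maf at chr8:115705955-115705981 on the minus strand.

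The genes lie on 6 chromosomes of mm10 by the GENCODE M21 annotation. Chromosome 8 holds Jund (70698949 to 70700616), Junb (84974484 to 84978718) and Maf (115682942 to 115707794). Chromosome 12 holds Fos (85473890 to 85477273) and Batf (85686669 to 85709087), whose facing ends lie 209 kb apart. Chromosome 4 holds Bach2 (32238804 to 32586108) and Jun (95049034 to 95052222). Fosl2 lies on chromosome 5 (32135801 to 32157842), Fosb on chromosome 7 (19302696 to 19310051) and Batf3 on chromosome 1 (191097847 to 191108945).

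The cells held high Junb and Batf transcript levels, moderate Maf, Bach2, Jund, Jun and Fos, and little Fosl2, Fosb and Batf3. Levels are TPM as deposited, a measure of relative transcript abundance that corrects for transcript length and sequencing depth. At 1 TPM or more in each library 7 of the 10 genes were detected, and 2 had a mean above 100 TPM. Among 22028 protein-coding genes, Junb held rank 422 by mean TPM, Batf rank 663, Maf rank 4552 and Bach2 rank 6146. The libraries held 20942875, 18402479 and 17494966 expected counts on annotated genes, with library 1 the deepest. Among marker genes, all 8 T cell and all 6 regulatory T cell markers were detected in each library, with Foxp3 at 77.6, 86.2 and 59.2 TPM. By the same rule 6 of 8 B cell, 5 of 6 erythroid and 4 of 7 macrophage markers were detected. Detection alone therefore cannot settle the identity of the cells. In RNA from a bulk of cells, fewer cells of a type and less RNA per cell cannot be told apart.

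**Figure D1:**
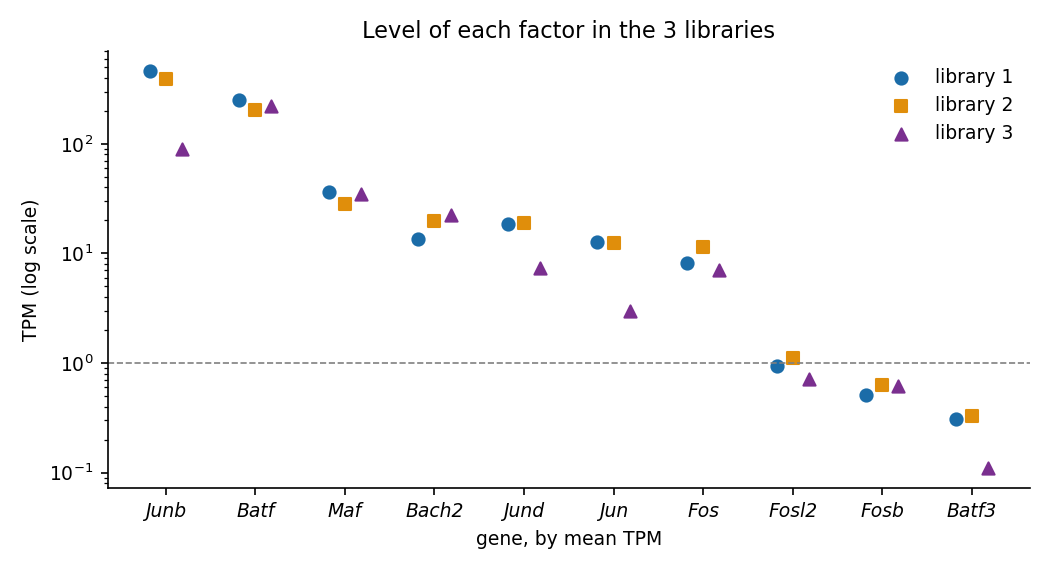
TPM of the 10 genes (log scale) in each of the 3 libraries, 1 point per library, with genes ordered by mean TPM and the dashed line at 1 TPM. Junb is at 466 and 392 TPM in libraries 1 and 2 and at 89.4 TPM in library 3, while Batf lies between 204 and 254 TPM in all 3.

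Junb, which encodes a JUN protein that pairs with BATF in T cells, was the highest member. Its level was 466, 392 and 89.4 TPM in libraries 1, 2 and 3, from 10671, 8256 and 1877 expected counts, a mean of 316 ± 199.6 TPM (SD, n = 3). Libraries 1 and 2 were close to each other and library 3 stood far below both. Jund, the JUN gene often found in resting cells, was measured at 18.7, 19.0 and 7.38 TPM (395, 368 and 143 counts). Jun, which encodes the founding AP-1 protein c-JUN, was measured at 12.6, 12.5 and 3.00 TPM (517, 469 and 113 counts). All 3 JUN genes thus had their lowest level in library 3, and Jun and Jund had nearly equal levels in libraries 1 and 2.

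Batf was the highest member of its family and varied less over the libraries than Junb. Its level was 254, 204 and 220 TPM in libraries 1, 2 and 3, from 2768, 2072 and 2230 counts, a mean of 226 ± 25.0 TPM (SD, n = 3). Library 3 lay between the other libraries. Batf3, known for its role in dendritic cells that cross-present antigen, had only 3, 3 and 1 counts, or 0.31, 0.33 and 0.11 TPM. Its sum of 7 counts has an exact Poisson 95% interval of 2.81 to 14.4, which covers counting error only, and 3 counts on this gene correspond to 0.33 TPM, so its level was at the floor of these libraries. The dendritic cell markers were also low, with summed levels of 3.03, 2.45 and 3.50 TPM over 6 genes. Batf2, the remaining gene of that family, was at 0.12, 0 and 0.12 TPM.

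Among FOS genes, Fos led. It was measured at 8.09, 11.6 and 7.00 TPM (217, 223 and 139 counts), a mean of 8.88 ± 2.38 TPM (SD, n = 3). Fosl2, which encodes FRA2, was measured at 0.94, 1.12 and 0.72 TPM (72, 76 and 48 counts). Fosb was measured at 0.51, 0.63 and 0.62 TPM (23, 26 and 26 counts). Both lay near or under 1 TPM in every library. Fosl1, which encodes FRA1, was at 0.09, 0 and 0.19 TPM.

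Maf was measured at 36.3, 28.4 and 34.6 TPM (2203, 1573 and 1963 counts), a mean of 33.1 ± 4.17 TPM (SD, n = 3). Bach2 was measured at 13.6, 19.8 and 22.5 TPM (529, 588 and 727 counts), a mean of 18.6 ± 4.56 TPM. The 2 genes had opposite orders in libraries 1 and 2, with Maf highest and Bach2 lowest in library 1.

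Ordered by mean TPM the members ran Junb, Batf, Maf, Bach2, Jund, Jun, Fos, Fosl2, Fosb and Batf3. A pair of neighbours was called separated where the log2 ratio of TPM + 1 had 1 sign in every library and a mean above 2 SD over the libraries. Of the 9 neighbour pairs 3 were separated. Batf lay above Maf (2.74 ± 0.09 on the log2 scale, SD), Jund above Jun (0.72 ± 0.30) and Fos above Fosl2 (2.34 ± 0.20). Without scaling for length the order of Jund and Jun did not hold. On expected counts the mean log2 ratio of Jun over Jund was 0.13 ± 0.38 (SD), which is not separated. Jund stayed higher in library 3 (143 against 113 counts). On the second deposited gene table the ratio was 1.46. Junb and Batf were not separated, since their log2 ratio was 0.88, 0.94 and -1.29 in libraries 1, 2 and 3. Without library 3, 6 neighbour pairs were separated and Batf lay below Junb with a mean log2 ratio of -0.91. Maf and Bach2 (1.36, 0.50 and 0.60) and Bach2 and Jund (-0.44, 0.05 and 1.49) were also not separated, nor were Jun and Fos, of which Jun was higher in libraries 1 and 2 and Fos in library 3.

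Of 17 pairs of related genes examined, 12 were separated by the same rule. Batf exceeded its partner Irf4, which was at 22.4, 20.2 and 22.9 TPM, by a log2 ratio of 3.31 ± 0.12 (SD, n = 3). Bach2 exceeded its relative Bach1, at 4.08, 4.24 and 3.83 TPM, by 1.93 ± 0.38. Bach2 and Prdm1, which encodes BLIMP1 and is a known target of BACH2 repression, were not separated. Prdm1 was at 30.7, 18.9 and 13.0 TPM, and the log2 ratio of Bach2 over Prdm1 was -1.12, 0.06 and 0.74. Prdm1 therefore lay above Bach2 in library 1 and below it in library 3.

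Summed over each family, JUN transcripts reached 497, 424 and 99.8 TPM, BATF transcripts 254, 205 and 220 TPM, and FOS transcripts 9.63, 13.3 and 8.53 TPM. Junb alone gave 93.7%, 92.6% and 89.6% of the JUN sum, and Batf gave at least 99.8% of the BATF sum. The log2 ratio of the JUN sum over the BATF sum was 0.97, 1.05 and -1.14, so JUN transcripts were the more abundant in libraries 1 and 2 and BATF transcripts in library 3. In the second table, which is not scaled for length, Junb (863 counts) exceeded Batf (573 counts) in library 3 too. By expected counts, also not scaled for length, Batf (2230) exceeded Junb (1877) in library 3. BATF transcripts exceeded FOS transcripts 26.4-fold, 15.4-fold and 25.8-fold. FOS genes thus supplied the lowest family sum in all 3 libraries.

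The libraries were compared gene by gene with a chi-square test against Poisson counting on TMM-scaled counts, adjusted by Benjamini and Hochberg over the 14877 genes that averaged 10 counts or more. Each call therefore sets a difference between single libraries against counting noise alone. Of the 9 members tested, 7 passed an adjusted p of 0.05, against 63.9% of all genes tested, so the members' share was close to the background. Batf3 was too low to test. Library 3 was lowest in 4 of the called members (29.8% of all genes tested), namely Junb, Jun, Jund and Fos. It was highest in 1 called member (24.3% of all genes), Bach2. For Batf and Maf, library 3 lay between the others. Fosl2 and Fosb did not pass, with adjusted p-values of 0.067 and 0.69.

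The deviation of library 3 was expressed as the log2 of its TMM-scaled count over the mean of libraries 1 and 2, with the SE from counting. It was -2.24 ± 0.03 for Junb (chi-square 5191), a 4.73-fold lower level. Jun deviated by -2.03 ± 0.14 (adjusted p = 1.89e-51, chi-square test) and Jund by -1.33 ± 0.13 (adjusted p = 7.26e-24). Fos deviated by -0.58 ± 0.14 (adjusted p = 0.000143). Bach2 stood higher in library 3, by 0.46 ± 0.07 (adjusted p = 1.08e-12). Batf, at -0.03 ± 0.04, and Maf, at 0.15 ± 0.04, differed little in library 3, and their calls (adjusted p of 1.19e-08 and 1.10e-12) came with library 2 as the lowest. Jun, Jund and Fos no longer passed without library 3, with adjusted p-values of 0.919, 0.727 and 0.286, and Maf no longer passed without library 2 (adjusted p = 0.961).

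Library 3 was low for many genes with a GC-rich stretch. Local GC content was taken from the richest 200-base window of a gene's most abundant transcript. Over genes that averaged 100 counts or more, the median deviation of library 3 was 0.09 at a local GC of 60% to 65%, -0.84 at 70% to 75% and -0.99 at 75% to 80%. It was -0.17 at 80% to 85% and 0.14 at 85% to 90%. The most GC-rich 100 coding bases of 5 members are printed, with G and C in capitals and the rest in lower case. They are shorter than the 200-base windows used for local GC. Of these 5 members, Batf and Maf were not low in library 3.
Batf: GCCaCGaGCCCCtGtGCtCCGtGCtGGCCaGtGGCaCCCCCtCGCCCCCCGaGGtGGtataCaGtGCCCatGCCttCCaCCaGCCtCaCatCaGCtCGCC
Junb: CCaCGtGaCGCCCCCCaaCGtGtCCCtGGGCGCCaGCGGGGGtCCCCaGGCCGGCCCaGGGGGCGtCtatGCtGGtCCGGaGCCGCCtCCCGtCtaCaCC
Jun: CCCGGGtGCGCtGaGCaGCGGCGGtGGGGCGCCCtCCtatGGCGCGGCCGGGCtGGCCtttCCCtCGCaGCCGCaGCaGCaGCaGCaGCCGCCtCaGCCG
Jund: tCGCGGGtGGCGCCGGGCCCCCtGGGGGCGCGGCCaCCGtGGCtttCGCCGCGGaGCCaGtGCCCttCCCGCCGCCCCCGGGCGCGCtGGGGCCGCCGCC
Maf: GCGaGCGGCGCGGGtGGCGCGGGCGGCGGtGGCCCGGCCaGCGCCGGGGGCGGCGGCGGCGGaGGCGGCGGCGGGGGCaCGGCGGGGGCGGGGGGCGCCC
These stretches hold 69% G and C in Batf (chr12:85708637-85708736, plus strand), 76% in Junb (chr8:84977890-84977989, minus strand) and 78% in Jun (chr4:95050642-95050741, minus strand). They hold 86% in Jund (chr8:70699626-70699725, plus strand) and 94% in Maf (chr8:115706137-115706236, minus strand).

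**Figure D2:**
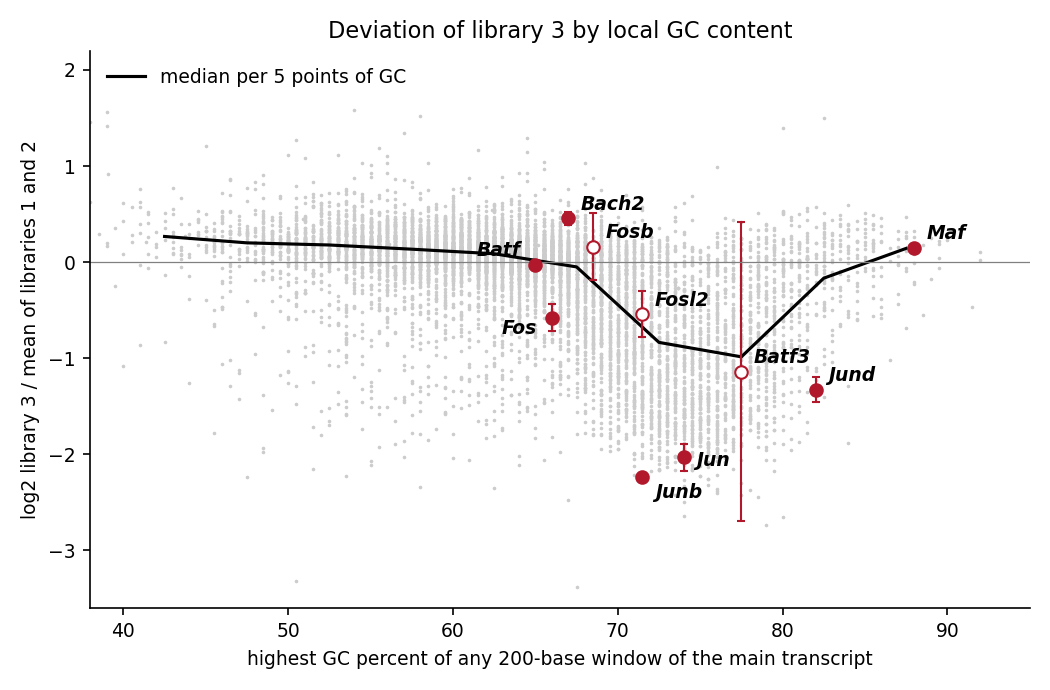
Log2 of library 3 over the mean of libraries 1 and 2 (y axis, TMM-scaled counts) against the GC percent of the richest 200-base transcript window (x axis). Grey points are genes that averaged 100 counts or more, the line is their median per 5 points of GC, and red points are the members with counting SE bars, open where the mean count is under 100. Junb, Jun, Jund and Fos lie below the line, Bach2 above it, and Maf, at 88% GC, lies on it.

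Among the members, Maf had the highest local GC (88%), followed by Jund (82%), Batf3 (77.5%), Jun (74%), Junb and Fosl2 (71.5% each), Fosb (68.5%), Bach2 (67%), Fos (66%) and Batf (65%). Junb lay below the other genes of like local GC: of 774 genes within 1 percentage point, none had a lower deviation, and their quartiles were -1.27 and -0.21. For Jun 3.76% of 638 such genes were lower, for Jund 4.68% of 171 and for Fos 8.82% of 1168. For Bach2 98.4% of 1115 such genes were lower. Maf, with 55.6% of 27 genes lower, and Batf, with 35.8% of 1225 lower, sat within the middle of theirs. After a trend on local GC was removed from each library, the deviation was -1.58 for Junb, -1.19 for Jun, -1.03 for Jund, -0.55 for Fos and 0.56 for Bach2. The same 4 genes still passed with library 3 lowest (24.4% of all genes in that fit), and 7 of 9 members passed in all (58.7%).

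Libraries 1 and 2 also differed from each other, in fewer genes. Of the 9 members, 3 were called higher in library 1 than in library 2 (16.5% of 14868 genes tested) and 1 was called lower (13.7%). The log2 ratio of library 1 over library 2 was 0.33 ± 0.05 (counting SE) for Maf (adjusted p = 1.34e-10, chi-square test), 0.26 ± 0.04 for Batf (1.15e-08) and 0.21 ± 0.02 for Junb (1.11e-21). It was -0.31 ± 0.09 for Bach2 (adjusted p = 0.00176). Jun, Jund, Fos, Fosl2 and Fosb did not pass, with ratios from -0.33 to -0.02. In the second deposited gene table, described further on, none of the 7 members tested passed the same chi-square test (0 at an unadjusted p under 0.05), where 5.3% of 10969 genes were called higher in library 1 and 5.08% lower, with ratios of 0.08 for Maf, 0.05 for Batf, -0.09 for Junb and -0.14 for Bach2. The calls between libraries 1 and 2 thus stood in 1 of the 2 tables, and Junb's ratio had the other sign in the second. In libraries 1 and 2 of the second table Maf had only 49 and 42 counts and Bach2 297 and 297. These are fewer than in the first, so a missing call there does not contradict it. Abundant genes are compressed in that table: its median count was 50.3%, 50.3% and 47.0% of the expected count for genes of 100 to 1000 counts, and 10.2%, 12.1% and 11.4% for genes above 10000, so ratios of abundant genes are not comparable between the tables.

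Genes known to be tied to these factors were set beside that difference. The list of effector genes tied to BATF, BACH2 or MAF held 16 genes, led by Tnfrsf4 (OX40, a costimulatory receptor) at 825, 665 and 618 TPM, Ctla4 (an inhibitory receptor) at 331, 241 and 232 TPM and Icos (a costimulatory receptor) at 272, 204 and 233 TPM. Of the 16, 12 were called higher in library 1 than in library 2 (16.5% of all genes tested). The cytokine gene Il4 was the 1 called lower (13.7%). The median log2 ratio of the 16 was 0.42, against -0.004 over all genes tested. The list of resting genes tied to BACH2 held 10 genes, among the highest of which were Ccr7 (a homing receptor for lymph nodes) at 327, 420 and 478 TPM and Foxp1 (a forkhead factor) at 279, 309 and 277 TPM. Of the 10, 8 were called lower in library 1 (13.7% of all genes tested) and 1, Id3, was called higher (16.5%). The median log2 ratio of the 10 was -0.38. In the second deposited table, 5 effector genes were called higher (5.3% of all genes tested there) and 7 resting genes lower (5.08%). The median ratios there were 0.19 for the effector and -0.22 for the resting list, against -0.004 over all genes tested. Tnfrsf4, Ctla4 and Icos were not among those 5, with log2 ratios of -0.09, 0.04 and 0.11. Ctla4 is also in the list of regulatory T cell markers, of which 5 of 6 were higher in library 1 (16.5% of all genes) and Foxp3 was lower. In the second table these 6 markers had adjusted p-values of 0.0698 or more between libraries 1 and 2 by the chi-square test, and a median ratio of -0.07.

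**Figure D3:**
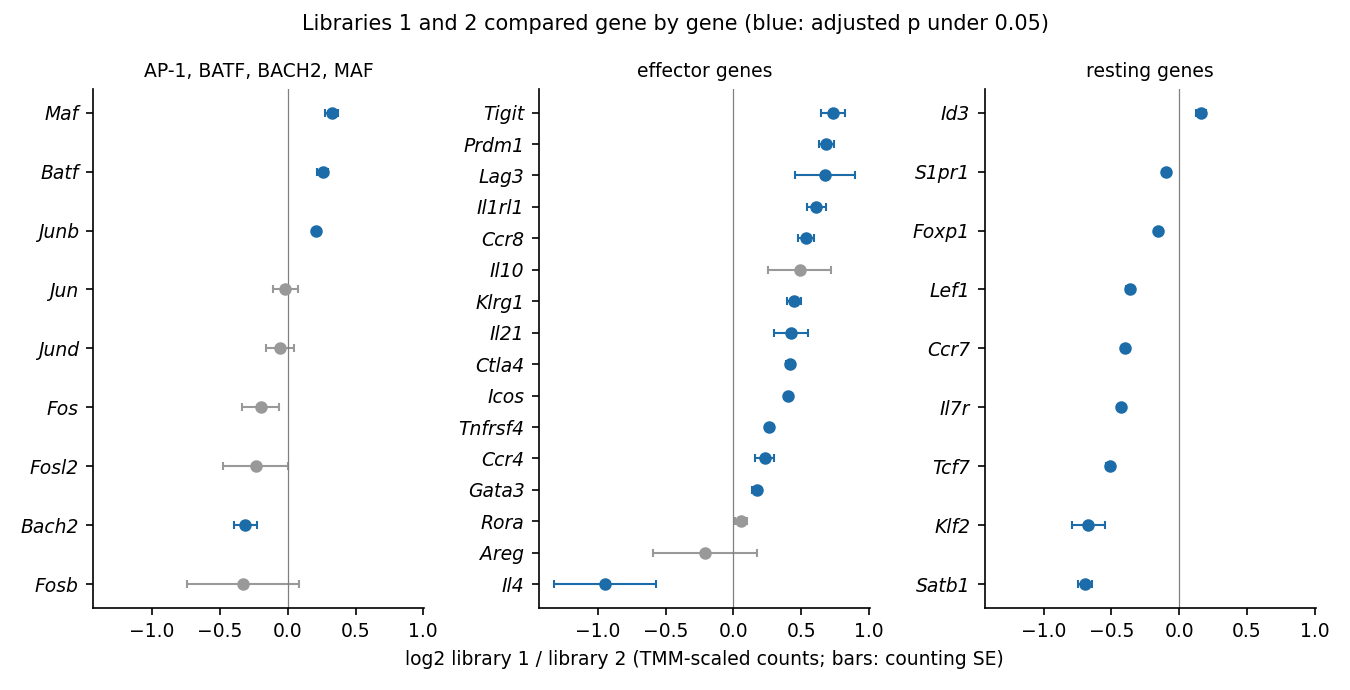
Log2 ratio of library 1 over library 2 on TMM-scaled counts (x axis) for the 9 tested members, 16 effector genes and 9 of the resting genes, with counting SE bars and blue points for an adjusted p under 0.05. Batf, Maf and Junb lie at 0.21 to 0.33 and Bach2 at -0.31, with most effector genes above 0 and most resting genes below 0.

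Transcripts of other cell types also differed between the libraries. B cells also express Bach2, and the 8 B cell markers summed to 1796, 1392 and 1557 TPM, of which Ighm gave 1708, 1301 and 1448 TPM. Of the 8 markers 5 were called between the libraries (63.9% of all genes tested), 4 of them with library 3 highest (24.3%). Between libraries 1 and 2, 1 of the 8, Ighm, was called higher in library 1 (16.5% of all genes tested). The 1 called lower (13.7%) was Cd79a, at 13.1, 18.4 and 22.1 TPM. Pax5 stood at 0.35, 0.90 and 0.48 TPM. Macrophages express Maf and Fos, and their 7 markers summed to 44.3, 45.9 and 34.8 TPM, led by Csf1r at 15.68, 14.94 and 12.03 TPM. The 6 erythroid markers summed to 1390, 1097 and 1751 TPM, led by Hbb-bs, Hba-a2 and Hba-a1. All 6 were called with library 3 highest (24.3% of all genes tested). The 3 granulocyte markers were at 0 in libraries 1 and 3, and S100a9 was at 1.80 TPM in library 2. The 4 plasma cell markers summed to 62.5, 62.9 and 25.5 TPM, and the low sum of library 3 came from Xbp1, which other cells also express and which has a local GC of 76%, at 52.7, 46.5 and 11.95 TPM. Of the 3 plasma cell markers tested, library 3 was lowest in 1, highest in 1 and between the others in 1. The part of these cells in the members' values was not tested.

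Of 24 other bZIP genes, 13 were detected at 1 TPM in each library. The highest were Atf4, the factor of the amino acid response, at 87.3, 97.8 and 99.6 TPM, Atf2, a JUN partner, at 85.4, 85.6 and 105 TPM, and Creb3 at 79.1, 87.6 and 87.2 TPM. All 3 lay above Maf and below Batf in every library. The small MAF genes differed among themselves. Mafk was at 44.1, 39.9 and 16.4 TPM and was low in library 3 with a log2 deviation of -1.34, Mafg was at 9.87, 8.07 and 6.71 TPM, and Maff was at 0.79, 0.64 and 0.16 TPM. Jdp2, which can replace FOS or BATF as a JUN partner, was at 1.02, 0.61 and 1.00 TPM. Among 18 tested genes of the list 11 were called, 4 of them with library 3 lowest and 6 with it highest, against 63.9%, 29.8% and 24.3% of all genes tested.

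The DNA-binding partners of AP-1 and BATF were all detected, 9 of 9. Ets1 was at 473, 465 and 269 TPM, Nfatc1 at 182, 157 and 125 TPM and Nfatc3 at 52.3, 51.1 and 29.3 TPM. These are an ETS factor and 2 NFAT factors, all lowest in library 3. Their log2 deviations of library 3 were -0.75, -0.42 and -0.88. After the GC trend was removed they were -0.05, 0.03 and -0.17. Of the 9 partners, 9 were called between the libraries (63.9% of all genes tested) and 8 had library 3 lowest (29.8%). Irf4 was the exception, with a log2 deviation of library 3 of 0.04. The median deviation of the list was -0.88, and -0.28 after the GC trend was removed, against 0.01 for all genes tested both before and after.

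The genes listed as MAP kinases upstream of AP-1, which also include Prkcq, Srf, Elk1 and Elk4, were likewise all detected, 19 of 19. Among the highest were Prkcq (protein kinase C theta) at 163, 152 and 87.2 TPM and Elk4 (an ETS factor that acts on Fos) at 53.6, 61.9 and 67.6 TPM. Of the 19 genes 16 were called, 10 with library 3 lowest, 4 with it highest and 2 with it between, against the same shares of all genes. The median deviation of library 3 over this list was -0.45, and -0.04 after the GC trend was removed. Of the 7 MAP kinase phosphatase genes, 6 were detected, led by Dusp10 at 24.7, 28.3 and 32.7 TPM, Dusp6 at 33.0, 29.4 and 21.7 TPM and Dusp1 at 22.2, 21.8 and 6.69 TPM. Of these 7 genes 6 were called (63.9% of all genes tested), 4 with library 3 lowest (29.8%) and 1 with it highest (24.3%). Their median deviation was -0.64, and -0.41 after the GC trend was removed. The other immediate early genes, which like Fos and Junb are induced without new protein synthesis, numbered 15, of which 14 were detected. Rgs1 was at 347, 295 and 310 TPM, Btg2 at 224, 203 and 244 TPM and Zfp36 at 184, 182 and 171 TPM. Of the 15 genes 12 were called (63.9% of all genes tested), 9 with library 3 lowest (29.8%) and 1 with it highest (24.3%). The median deviation of these 15 was -0.73, and -0.20 after the GC trend was removed.

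For most members 1 transcript model carried the gene. Jun and Jund each have 1 annotated transcript, and Junb-201 held 99.7% of the TPM of Junb. Batf-201, the coding transcript, held 84.0%, 85.8% and 85.9% of Batf in libraries 1, 2 and 3, and the remainder was Batf-202, a retained-intron transcript at 40.5, 29.1 and 31.1 TPM. Maf divided between Maf-201 (3223 bases) with 52.7%, 53.7% and 50.2% and Maf-202 (6360 bases) with 47.3%, 46.3% and 49.8%. The Maf shares were steady over the libraries, while by expected counts the longer transcript held 64.5% ± 1.67 (SD, n = 3).

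Bach2, Fos and Fosb had transcript shares that moved between libraries. Bach2-201 held 56.2%, 39.1% and 40.4% of the TPM, and all 7 annotated transcripts of Bach2 received counts in at least 1 library. The long coding transcript Bach2-207 received 158, 16.7 and 292 counts, and Bach2-202, also long, received 0, 206 and 0. Reads of library 2 were thus assigned to a different long transcript from those of libraries 1 and 3. Fos-201 held 100%, 67.6% and 69.9% of Fos, with the rest in 3 transcripts without a coding sequence. Fosb-207 held 82.4%, 88.9% and 56.5% of Fosb, from 19.0, 23.2 and 14.5 counts. The coding sequence of Fosb-207 did not hold the stretch printed above, which was read from Fosb-206, a transcript with 0, 0.07 and 0 counts. Shares are estimates of the authors' assignment model, and no error for them was used here.

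**Figure D4:**
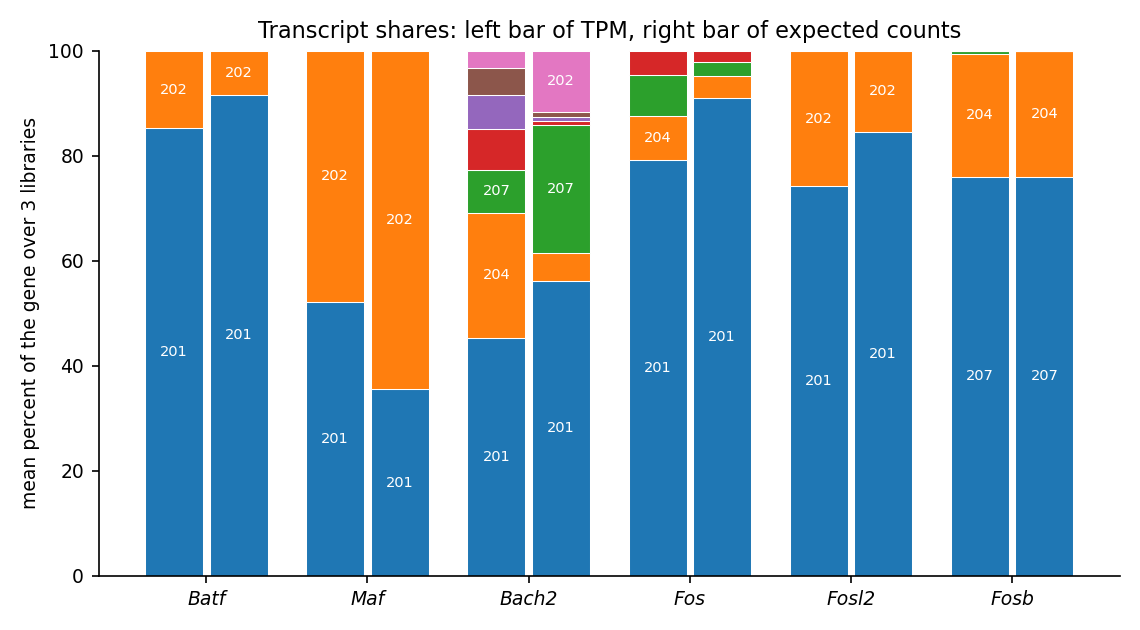
Mean share of each annotated transcript in its gene over the 3 libraries (y axis, percent) for 6 members, with TPM shares in the left bar and expected-count shares in the right bar of each gene and transcript numbers inside. Batf rests mainly on Batf-201 (85.2% of TPM), Maf is divided between Maf-201 and Maf-202, and Bach2 is spread over 7 transcripts.

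Some members overlap other genes. The 3′ end of Junb overlaps Prdx2, a peroxiredoxin gene on the opposite strand with a mean of 217 TPM, at chr8:84974484-84974834. Prdx2 received 2383, 2130 and 2433 counts and so did not share the low value of library 3. Bach2 overlaps Bach2os on the opposite strand (31.0, 19.7 and 39.7 counts) and Bach2it1 on the same strand (15, 11 and 11 counts). Jun overlaps Junos, with 7.18, 5.50 and 8.37 counts, and Maf overlaps Gm15655, with 0, 7.71 and 8.60 counts. The sources used here do not say whether strand was used in counting, so reads of such pairs may not be told apart. The deposited SD of each count from read assignment was at most 6.88 counts, for Maf, and was 0 for Batf, Fos, Fosb, Fosl2 and Batf3.

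The second gene table gave whole-number counts for GENCODE M4, and in it 56.8% of 10936 genes tested differed between the libraries. Of the 7 members tested there, 5 were called. Junb was counted at 2012, 1936 and 863, Jun at 204, 188 and 31, Jund at 70, 56 and 10 and Fos at 125, 141 and 92, each lowest in library 3. Bach2 was counted at 297, 297 and 360, highest in library 3. The deviation of library 3 was -1.04 for Junb, -2.48 for Jun, -2.43 for Jund, -0.38 for Fos and 0.43 for Bach2. Junb's counts in this table were 18.9%, 23.4% and 46.0% of its expected counts in libraries 1, 2 and 3, so its deviation is not comparable in size between the tables. Batf (651, 571 and 573 counts) and Maf (49, 42 and 57) were not called, with adjusted p-values of 0.625 and 0.187 by the chi-square test.

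Maf had far fewer counts in the second table. Over the 3 libraries it reached 2.58% of its expected count in the first, where the median of 3947 genes with 1000 to 10000 counts was 42.4%. Of those genes 130, or 3.29%, were lower. Jund reached 15.01%, with 7.73% of 5136 genes of 100 to 1000 counts lower, and Junb 23.1%, with 20.0% of the genes in its range lower. Fos, at 61.8%, and Bach2, at 51.7%, were near or above the median of 49.6% in theirs. The order of Maf and Bach2 therefore depended on the table. Bach2 exceeded Maf by a mean log2 ratio of 2.56 in the second table, whose counts are not scaled for length, and lay below it by 0.82 in TPM. On depth-scaled expected counts, also not scaled for length, the mean log2 ratio of Bach2 over Maf was -1.61.

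**Figure D5:**
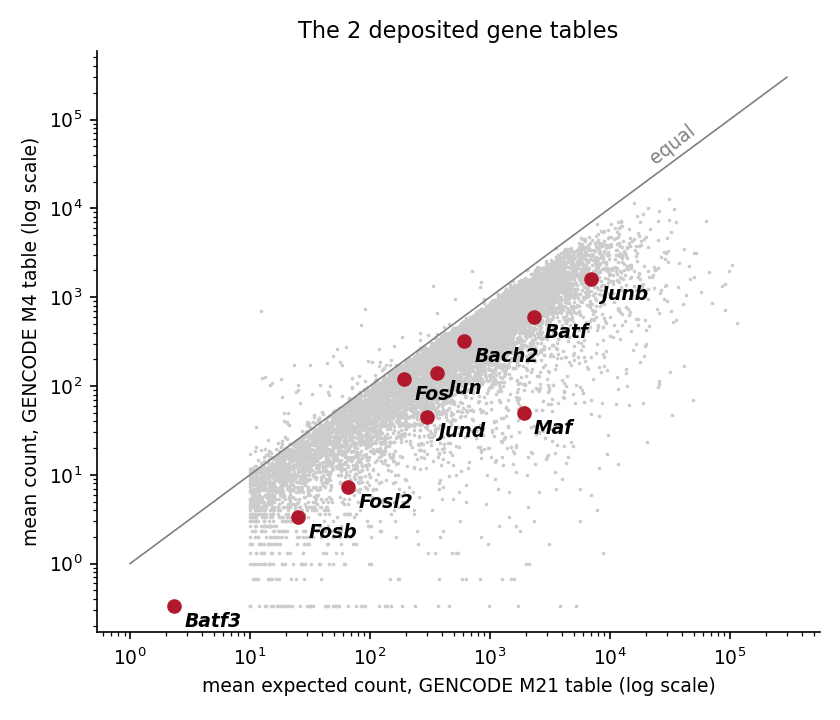
Mean count over the 3 libraries in the GENCODE M4 table (y axis, log scale) against the mean expected count in the GENCODE M21 table (x axis, log scale), with tested genes in grey, members in red and a line at equality. Maf, at a mean of 1913 expected counts, lies far below the genes around it, while Bach2 and Fos lie within the dense band.

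The genes most like 3 members in their pattern over the libraries were named by the distance between centred log2 scaled counts, among the 9994 genes that averaged 100 counts or more. Batf was nearest to Dstn (distance 0.005), Traf2 (0.006) and Nek1 (0.008), and 581 genes lay within 0.1. Junb was nearest to Cactin (0.025), Tbc1d10a (0.040) and Sipa1 (0.067), and 7 genes lay within 0.1. Among the genes nearest to Bach2 were Phc3 (0.005) and Rpl36a (0.007), and 167 genes lay within 0.1. With 3 libraries a close match is common for a gene as steady as Batf and was rare for Junb.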

How the data were processed

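The authors deposited, for each library, a gene and a transcript table for mm10 and GENCODE M21 with expected counts, TPM and FPKM, per the file headers. The deposited tables also hold the percent of a gene's TPM in each transcript and a posterior SD of each count (used here as a signal in counts). A second deposited table holds whole-number counts for GENCODE M4. The sources used here name no aligner, counter or counting rule.

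Expected counts were rounded. Since 1 group gives no contrast, a chi-square test against Poisson counting (2 degrees of freedom) replaced edgeR's quasi-likelihood test. Library sizes were scaled by TMM (edgeR 4.0.16, R 4.3.3), genes needed a mean count of 10, and p-values were adjusted by Benjamini and Hochberg. DESeq2 1.42.0 gave alternative size factors. A lowess trend (statsmodels 0.14.6, fraction 0.3) on local GC content used genes of 100 counts or more. Deviations and ratios of libraries add 0.5 to each count, and log2 TPM ratios use a pseudocount of 1, which understates ratios of low genes.

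The members, lists, pairs, tests and the 200-base GC window were chosen with earlier results of these data known. Named genes are the members, the 3 highest of each list, list members under 1 TPM where there are 4 or fewer, pair genes and the 3 nearest in pattern. A few genes taken by this rule are not reported here. Foxp3, Cd79a, Pax5, Mafk, Mafg, Il4, Id3, Xbp1, Maff, Jdp2, Batf2, Fosl1, the printed markers of other cell types and genes that overlap members were added after their values were seen. Intervals and floors (3 counts) reflect counting error alone, because PCR copies of a molecule cannot be recognised.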

Additional observations from a re-analysis of the deposited data

How the results depend on the processing

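DESeq2 size factors, total counts and other count filters kept the counts of called genes and members within 1.5 times of those reported. The second table called 6212 genes between the libraries in place of 9501. Without each library in turn, 4487 to 8041 genes and 4 to 8 members were called, the lowest values being those without library 3. Leaving out each library gave 3 to 6 separated neighbours, and depth-scaled expected counts, not scaled for length, gave 5. The log2 ratio of the JUN over the BATF sum, 0.29 over 3 libraries, ran from -0.087 to 1.01 when each library was left out (-0.047 without library 1, -0.087 without library 2), and was 1.38 on depth-scaled expected counts and 1.47 on the second table. On the second table the log2 ratio of JUN over FOS was 3.65 and of BATF over FOS 2.18, and BATF over FOS was 3.07 on depth-scaled expected counts. Effector genes called higher in library 1 numbered 5 on the second table, where 5.3% of all genes tested were called higher.

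Some single values changed sign. Among called ones, Jun over Jund was 0.13 ± 0.38 (SD) on depth-scaled expected counts and 1.46 on the second table. Bach2 over Maf, not separated in TPM, was 2.56 on the second table. The deviation of library 3 for Batf was 0.059 with total counts and 0.068 on the second table, and for Maf it was -0.10 after removal of the GC trend. Values that were not called also crossed 0 under some alternatives, namely Batf over Junb, Bach2 over Prdm1, Fos over Jun and the deviations of Fosl2 and Fosb. The cause of these changes was not tested. Maf's call was lost without library 2 (adjusted p = 0.961, chi-square test), and Fosl2 passed without library 1 (adjusted p = 0.0259). Alternatives for gene pairs, for the effector and resting lists and for the count of members lowest in library 3 were chosen after seeing the data. No paired analysis was possible because the libraries form 1 group. Depth limits Batf3, Fosb and Fosl2.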
